A study of Mus musculus with 2 samples.

Results

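The immunoglobulin variable segments comprised every row of the deposited count tables whose symbol starts with Ighv, Igkv or Iglv. This rule gave 348 of 31053 genes. They were 185 Ighv rows on chromosome 12, 160 Igkv rows on chromosome 6 and 3 Iglv rows on chromosome 16, with 346 distinct symbols because 2 symbols occur on more than 1 row. In the GENCODE M21 annotation of mouse genome build GRCm38, 216 were annotated as functional variable genes, 130 as variable pseudogenes, and the other 2 carried the biotype IG_LV_gene. Droplet 3′ single-cell RNA libraries were made from mediastinal lymph node (MedLN) cells, 1 library per condition, with the cells of 4 wild-type C57/B6J mice aged 5 to 13 weeks pooled in each. All mice had ovalbumin (OVA) asthma: 50 µg OVA with alum was injected into the peritoneum on days 0 and 7, OVA was given through the nose on days 14 to 16, and nodes were taken on day 17. The OVA library came from mice without butyrate. The C4 library came from mice that also received butyrate, a short-chain fatty acid made by gut bacteria. The dose and route of butyrate for these mice are not given in the sources used here. Neither library can be split by mouse, so no mouse-to-mouse spread was available, no test between conditions was made, and every interval below covers counting error only, at 95%.

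An antibody chain is encoded by a variable exon, assembled during B cell development, and a constant exon set. The heavy chain exon joins 1 Ighv segment to a diversity and a joining segment, and the light chain exon joins 1 Igkv or Iglv segment to a joining segment. A mature B cell normally carries 1 productive heavy and 1 productive light rearrangement, so its segment identifies the antibody family it makes. Naive B cells hold the chains as a surface receptor, and antibody-secreting cells transcribe the same rearranged genes at far higher levels. In the mouse most B cells use the kappa light chain, and the lambda locus holds few variable segments. Poly(A)-primed 3′ libraries read mainly the constant end of these transcripts, so the variable exon at the 5′ end is sampled sparsely.

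B cells were defined by at least 1 unique molecular identifier (UMI, 1 counted RNA molecule) of each of the B cell receptor subunits Cd79a and Cd79b and none of Jchain, the protein that links polymeric antibodies. This gave 4077 OVA and 3946 C4 cells with median depths of 4385 and 4626.5 UMIs. The Jchain+ cells had at least 1 Jchain UMI and a UMI of the plasma cell surface genes Sdc1 or Tnfrsf17, and numbered 42 in OVA and 12 in C4 with median depths of 25554 and 31839 UMIs. T cells (at least 2 Cd3d, Cd3e or Cd3g UMIs, no Cd79a or Cd79b) numbered 3509 and 2987 and served as the class that should lack these transcripts. After filtering, 8774 OVA and 8013 C4 cells remained, and 22 of their barcodes occurred in both libraries, none of them between Jchain+ cells. Ms4a1, the B cell surface gene for CD20, was found in 93.9% of OVA and 94.7% of C4 B cells and in 2.91% and 2.28% of T cells. Xbp1, the transcription factor of secretory cells, was found in 97.6% and 91.7% of Jchain+ cells against 18.03% and 22.4% of B cells, but the Jchain+ group was mixed: 3 of its 42 OVA cells and 4 of its 12 C4 cells had under 5 Xbp1 UMIs. Cd3 UMIs were present in 373 OVA and 440 C4 B cells, in 12 of 42 OVA and in 3 of 12 C4 Jchain+ cells, and their part in the results was tested only for B cells, by leaving such cells out.

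Of the 348 segments, 236 had at least 1 UMI in the kept cells of either library and 112 had none. Annotation and detection went together: 200 of the 216 functional segments were detected, and pseudogenes held 1.001% of Ighv and 2.03% of Igkv UMIs in OVA B cells and 0.897% and 3.01% in C4 B cells. In B cells 231 segments were detected, and 86 of them (48 heavy, 38 light) were found in at least 20 B cells of both libraries together. For 18 segments the annotated variable exon was at least 98% identical to that of another segment, so some reads could not be told apart between the copies. Whether such reads were lost or counted for 1 copy was not tested. Ighv1-62-2 and Ighv1-71 were identical over the whole exon, and both were at 0 UMIs. Igkv5-43 had 24 OVA and 40 C4 UMIs, and its 98.99% identical copy Igkv5-45, which shares the last 193 bases, had 2 and 3.

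The lambda segments carried much of the light chain signal described below. Iglv1 and Iglv2 differed at 11 bases of the exon (96.4% identical), while Iglv3 was 55.9% identical to Iglv1. The 11 differing bases are what let a read be assigned to 1 of them. The last 240 bases of both exons are shown, with the 6 that differ in this stretch in capitals. These and all other sequences were read from the GRCm38 reference, 5′ to 3′ on the strand of the gene, and contain no rearranged or mutated bases of these mice.
Iglv1 (chr16:19085017-19085256, minus strand): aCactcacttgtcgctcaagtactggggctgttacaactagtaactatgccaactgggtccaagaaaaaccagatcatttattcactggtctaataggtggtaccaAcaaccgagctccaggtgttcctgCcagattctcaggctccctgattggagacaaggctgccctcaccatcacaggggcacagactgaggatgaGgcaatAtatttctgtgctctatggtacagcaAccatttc
Iglv2 (chr16:19260401-19260640, minus strand): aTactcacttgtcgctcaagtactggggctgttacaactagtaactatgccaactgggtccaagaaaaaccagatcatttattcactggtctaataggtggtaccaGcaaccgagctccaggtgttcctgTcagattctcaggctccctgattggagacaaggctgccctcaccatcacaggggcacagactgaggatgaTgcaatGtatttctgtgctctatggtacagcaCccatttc
Iglv1 was found far more often than its near copy: 177 OVA and 178 C4 B cells held an Iglv1 UMI, against 7 and 10 for Iglv2.

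A variable-segment UMI was found in 54.4% of OVA B cells (2218 of 4077; exact binomial interval 52.9% to 55.9%) and in 54.9% of C4 B cells (2168 of 3946; 53.4% to 56.5%). With every B cell thinned to 2000 UMIs, which left out 40 and 16 shallower cells, the shares were 30.05% and 28.9%. T cells gave the background: 1.17% of OVA T cells (41 cells; 0.840% to 1.58%) and 0.201% of C4 T cells (6 cells; 0.0737% to 0.437%) held such a UMI, at median depths of 5579 and 6516 UMIs. The order of the T cell shares held after thinning to 2000 UMIs, at 0.315% and 0.101%, but these rest on few cells and their intervals overlap. Heavy constant genes in T cells went both ways between the libraries: Ighg1 had a UMI in 10.3% of OVA and 0.201% of C4 T cells, while Ighm had one in 68.0% and 72.1% and Igha in 1.20% and 2.08%. Iglv1, the segment with most UMIs in OVA, was in 11 OVA T cells and in 0 of 2987 C4 T cells, which allows a share of up to 0.100% (3 counts of the total). The share of B cells with a segment was many times that of T cells in both libraries, where T cells were chosen to lack Cd79a and Cd79b UMIs. The part of free RNA in the B cell values was not tested.

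Per B cell the signal was thin. Ighv segments had 0.441 UMIs per OVA and 0.480 per C4 B cell, and light segments 0.429 and 0.428. No B cell held more than 6 Ighv or 5 Igkv UMIs. Summed over B cells, Ighv reached 84.0 CPM (UMIs per 1000000 UMIs of the class; exact Poisson interval 80.1 to 88.0) in OVA and 85.9 CPM (82.1 to 89.9) in C4. Igkv stood at 64.3 CPM (61.0 to 67.8) and 58.7 CPM (55.5 to 61.9), and Iglv at 17.3 CPM (15.6 to 19.1) and 17.8 CPM (16.1 to 19.7). The intervals of both libraries overlapped for each of the 3 loci.

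A segment was assigned to a cell when its top segment had at least 2 UMIs and at least 67% of the variable UMIs of that chain. This named a heavy segment in 268 OVA (6.57%) and 295 C4 B cells (7.48%) and a light segment in 169 (4.15%) and 149 (3.78%). Accepting a single UMI raised these to 1274 and 1292 cells for the heavy chain (31.2% and 32.7%) and to 1160 and 1092 for the light chain (28.5% and 27.7%). Most B cells could not be assigned at this depth.

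B cells used many heavy segments and none dominated. The 268 OVA cells were spread over 66 heavy segments and the 295 C4 cells over 73. The effective number, the number of equally used segments that would give the same diversity, was 39.0 in OVA and 43.0 in C4 for the heavy chain, and 22.8 and 25.1 for the light chain. The 10 most used heavy segments held 39.9% of assigned cells in OVA and 37.3% in C4, and the 10 most used light segments held 56.2% and 53.0%. Light chain use was concentrated in fewer segments than heavy chain use in both libraries, also at 1 UMI or more, where the effective numbers were 51.0 and 48.1 for the heavy and 26.4 and 25.8 for the light chain. Over Igkv alone the gap at 1 UMI or more was smaller, with effective numbers of 37.4 and 38.9. At 2 UMIs or more they were 23.5 and 24.9 over Igkv alone.

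The large Ighv1 family, spread over the distal part of the locus, held 55.0% of Ighv UMIs in OVA and 57.2% in C4 B cells. Ighv5, a family close to the joining segments, followed with 12.5% and 9.65%. The heavy segments assigned most often over both libraries were Ighv1-26, Ighv5-17, Ighv9-3, Ighv1-81, Ighv5-4, Ighv1-82, Ighv6-3, Ighv3-6, Ighv1-9 and, at equal counts, Ighv6-6, with Ighv1-18 just behind. By B cells with a UMI, Ighv3-6 was in 53 OVA and 49 C4 cells, Ighv9-3 in 44 and 49, Ighv1-81 in 45 and 44, and Ighv1-82 in 47 and 45. Ighv1-18 was in 56 and 37, Ighv5-17 in 48 and 31, and Ighv1-9 in 41 and 43. None of these 7 ratios had an interval that left 0, and no single one of these segments exceeded 1.37% of OVA B cells.

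Among kappa segments the leading families were Igkv1, with 16.4% of Igkv UMIs in OVA and 16.9% in C4 B cells, Igkv6 with 13.1% and 11.3%, and Igkv12 with 12.9% and 13.7%. Igkv4, the family with most rows (33), held 9.08% and 10.9%. Igkv12-44 was found in 65 OVA and 72 C4 B cells, Igkv1-135 in 65 and 58, Igkv1-110 in 57 and 52, Igkv1-117 in 56 and 58, and Igkv10-96 in 46 and 42. Igkv12-46 was in 43 and 28 and Igkv3-4 in 26 and 18. The exons of Igkv1-110 and Igkv1-117 were 96.8% identical. A C4 and an OVA Jchain+ cell held 109 and 56 Igkv1-117 UMIs and none of Igkv1-110. Another C4 Jchain+ cell held 13 of Igkv1-110 and 8 of Igkv1-117. Whether reads of these segments were confused in B cells was not tested.

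Position along a locus and use were compared over the functional segments, in 4 groups of about equal segment number, ordered by distance from the joining segments. For Ighv, the groups from nearest to farthest held 21.6%, 24.9%, 25.8% and 27.7% of OVA cells assigned at 1 UMI or more, and 17.7%, 23.6%, 27.0% and 31.7% of C4 cells. The farthest Ighv group thus held the largest share in both libraries. For Igkv the shares were 24.5%, 23.9%, 17.5% and 34.1% in OVA and 23.3%, 26.9%, 16.7% and 33.1% in C4, with the lowest share in the third group and the highest in the farthest. The 38 functional Igkv segments on the plus strand, the strand of the kappa joining segments, held 47.3% of such cells in each library. Each group contained 2 to 5 functional segments at 0 UMIs.

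**Figure D1:**
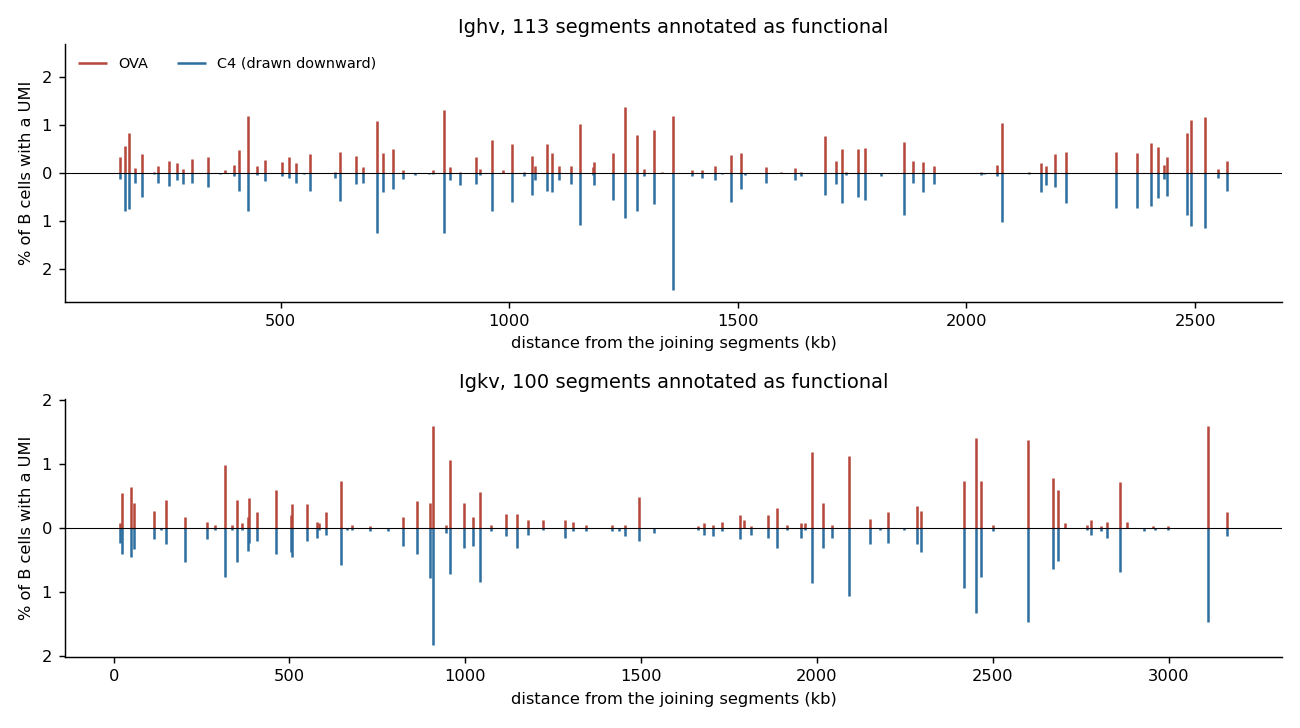
Share of B cells with a UMI of each functional segment (percent, vertical axis) against its distance from the joining segments (kb, horizontal axis), for 113 Ighv segments in the upper and 100 Igkv segments in the lower panel. OVA values are drawn upward and C4 values downward; the longest heavy line is Ighv1-26 in C4 at 2.43%, and the longest kappa line is Igkv12-44 in C4 at 1.82%.

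The lambda share did not differ between the libraries beyond counting error. Of B cells with an assigned light segment, 24 of 169 in OVA (14.2%; 9.32% to 20.4%) and 20 of 149 in C4 (13.4%; 8.40% to 19.97%) carried an Iglv segment, a log2 ratio of C4 over OVA of -0.08 (-1.01 to 0.84). At 1 UMI or more the shares were 20.8% and 22.2% (log2 ratio 0.09, -0.17 to 0.36). Iglv1 was the segment found in most B cells, in 4.34% of OVA and 4.51% of C4 cells (log2 ratio 0.06, -0.25 to 0.36). Iglv3 was next, in 3.80% and 4.33% (0.19, -0.13 to 0.51).

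The constant genes of the same cells showed how far an Iglv UMI marked a lambda cell. B cells with at least 5 light constant UMIs were called kappa at 80% or more Igkc and lambda at 80% or more Iglc1 to Iglc3. By this rule 5.13% of OVA and 5.07% of C4 B cells were lambda, 44.0% and 43.1% were kappa, and 49.4% and 50.1% held a mixture. An Iglv1 UMI was present in 22.0% of lambda cells in each library and in 2.45% of OVA and 2.35% of C4 kappa cells. Iglv3 separated them far less: it was present in 4.78% of OVA and 6.5% of C4 lambda cells, and in 3.51% and 3.998% of kappa cells. In both libraries the interval for Iglv3 in lambda cells overlapped that in kappa cells. Of the 167 OVA Iglv3 UMIs in B cells, 67 lay in kappa and 88 in mixed cells, and of the 180 in C4, 70 and 95 did. Of the 196 OVA Iglv1 UMIs, 47 lay in kappa and 91 in mixed cells, and of the 203 in C4, 42 and 104 did. Kappa and mixed cells also made up most B cells.

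The comparison of OVA with C4 asks whether segment use of B cells differed between mice without and with butyrate. Across the 86 segments in at least 20 B cells, the share of B cells with a UMI had a median log2 ratio of C4 over OVA of -0.02 (heavy 0.05, light -0.08), where the median over all 11443 genes tested in the same way was 0.10. The middle part of the distribution, from the lower to the upper quartile, ran from -0.37 to 0.37, and 59 of the 86 lay within 0.5 of 0. The shares of assigned cells at 1 UMI or more correlated at Pearson 0.89 and Spearman 0.90 over 109 heavy segments, and at 0.98 and 0.83 over 110 light segments. At 2 UMIs or more the values were lower, at 0.83 and 0.72 over 82 heavy and 0.86 and 0.55 over 60 light segments, of which 57 and 34 were assigned in both libraries. These correlations describe segments of a library, which are not independent samples.

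At least 2-fold higher shares in C4 were found for 5 of the 86 segments (5.81%), where 0.725% of all genes tested passed this fold, and at least 2-fold lower shares for 2 (2.33%), where 0.673% of all genes did. Few cells stood behind most of these ratios, and the shares over all genes were not matched to the segments for the number of cells. The counting interval lay above 0 for 3 segments, where it did so for 21.4% of all genes, and below 0 for 1, where it did so for 2.09% of all genes. The intervals were not adjusted for the number of segments.

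Ighv1-26 differed most in cell number. It is a functional Ighv1 segment whose 3′ end is shown with the codon of the second conserved cysteine of the domain, which closes framework 3 just before the junction, in capitals. Igkv12-44, the kappa segment in most B cells, is shown beside it.
Ighv1-26 (chr12:114788372-114788476, minus strand): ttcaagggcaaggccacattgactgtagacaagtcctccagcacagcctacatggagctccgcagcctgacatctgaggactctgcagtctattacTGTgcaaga
Igkv12-44 (chr6:69814631-69814735, minus strand): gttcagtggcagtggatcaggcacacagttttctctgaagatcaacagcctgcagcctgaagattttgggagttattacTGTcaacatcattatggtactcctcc
An Ighv1-26 UMI was present in 48 OVA B cells (1.18%) and in 96 C4 B cells (2.43%), a log2 ratio of 1.05 (0.53 to 1.58). The UMIs were spread over cells rather than held by a few: 35 of the 48 OVA and 78 of the 96 C4 cells had a single Ighv1-26 UMI, and the highest cell had 4 and 3. Where a kappa segment could also be named, the Ighv1-26 cells used 14 distinct ones in 17 OVA cells and 16 in 16 C4 cells. All 48 and 96 cells held Ighm, the constant gene of IgM, and 97.9% of them in each library held Ighd, the constant gene of IgD, close to all B cells, where Ighm was in 99.3% and 99.5% and Ighd in 94.8% and 95.2%. Ighg1 was in 9 of the 48 OVA and 2 of the 96 C4 cells, against 8.73% and 0.811% of all B cells. No other switched constant gene was in more than 4 of these cells in a library. In T cells Ighm was found in 68.0% of OVA and 72.1% of C4 cells, and Ighg1 in 10.3% and 0.201%. Among cells assigned at 2 UMIs or more the difference in Ighv1-26 between libraries was smaller, at 12 of 268 OVA and 15 of 295 C4 cells (log2 ratio 0.18, -1.01 to 1.41). Whether 1 of the 4 pooled mice supplied the difference cannot be told apart from the condition. The exons of Ighv1-26 and Ighv1-22 were 96.4% identical. An OVA Jchain+ cell held 88 Ighv1-22 UMIs and another held 10 Ighv1-26 UMIs, each with no other Ighv segment. Whether reads of these segments were confused in B cells was not tested. Ighv1-22 was in 36 OVA and 26 C4 B cells (log2 ratio -0.42).

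The other segments past the fold rested on fewer cells. Igkv3-12 was in 7 OVA and 21 C4 B cells (log2 ratio 1.63, 0.34 to 3.11), and after thinning to 2000 UMIs the value was 0.72 with an interval that included 0. Igkv5-43 was in 16 and 31 (1.001, 0.09 to 1.97), with intervals that included 0 at no more than 5% mitochondrial UMIs (0.52), without B cells that held a Cd3 UMI (0.92) and after thinning (0.33). Igkv8-19 was in 7 and 14 and Ighv1-66 in 8 and 16, both with intervals that included 0. Igkv4-72 was in 20 and 8 (-1.27, -2.67 to -0.03), with intervals that included 0 in 4 of 6 other settings (-1.70 to -1.08), and Igkv6-20 in 19 and 9 (-1.03, -2.36 to 0.18).

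Among segments with at least 20 assigned B cells (2 UMIs or more), 7 heavy and 4 light, none differed 2-fold. The highest heavy ratios were those of Ighv1-82 (0.86), Ighv1-26 (0.18) and Ighv1-81 (0.12), and the lowest those of Ighv6-3 (-0.55), Ighv5-17 (-0.52) and, at equal values, Ighv5-4 and Ighv9-3 (-0.14). The 4 light segments were Igkv1-117 (0.18), Iglv1 and Igkv12-44 (-0.02 each) and Igkv1-135 (-0.35). All 11 intervals included 0.

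On the CPM scale, with 10 CPM added to each value, 50 segments had at least 50 UMIs in the B cells of both libraries together. None passed 2-fold in either direction, where 0.0765% of the 10464 genes tested were higher and 0.086% lower. Their log2 ratios ran from -0.12 for Igkv12-46 to 0.24 for Ighv1-26, with a median of -0.01 against 0.02 over all genes tested. With 10 CPM added none could pass, since the most abundant segment, Iglv1, stood at 9.15 and 9.20 CPM. With 1 CPM added, where 2-fold could be reached, none passed either.

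**Figure D2:**
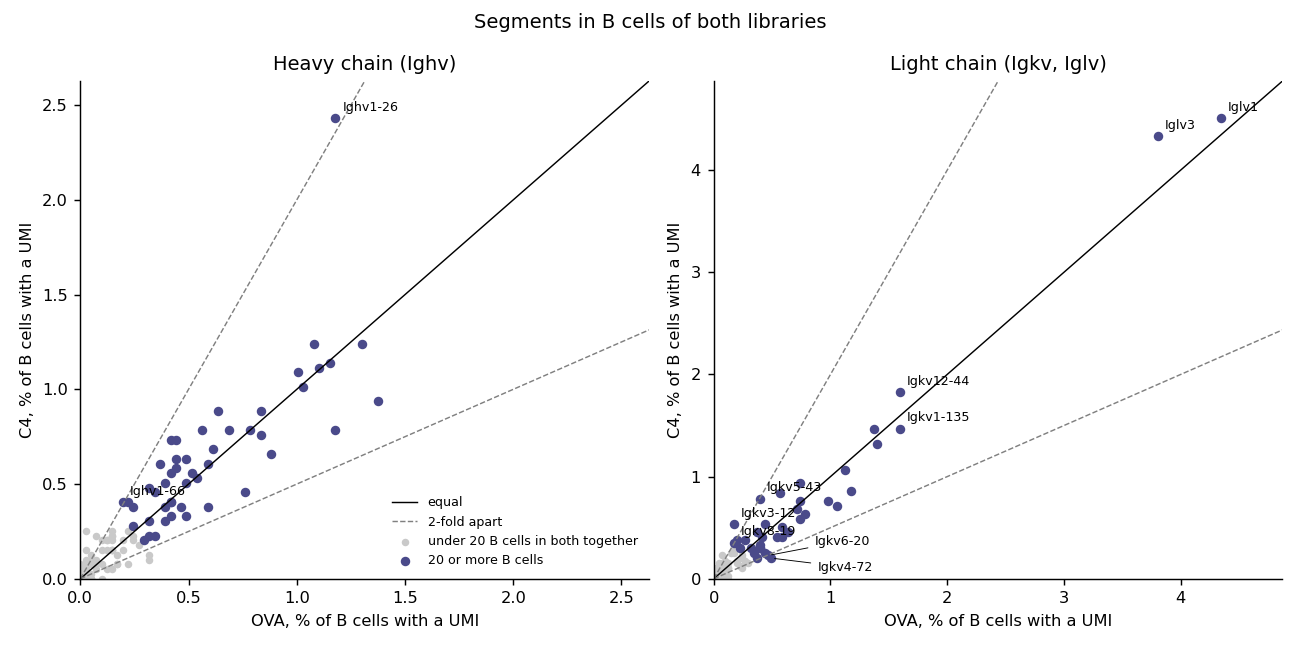
Share of B cells with a UMI of each segment (percent) in OVA (horizontal axis) and C4 (vertical axis), heavy segments at left and light segments at right, with lines for equal shares and for a 2-fold difference. Dark points are the 86 segments in at least 20 B cells of both libraries together; Ighv1-26 is the heavy point farthest from the line of equal shares, and Iglv1 and Iglv3 lie at the upper right of the light panel.

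Other genes of the pathway were read in the same B cells. Of the 11 constant genes with enough UMIs, 2 passed 2-fold on the CPM scale, both lower in C4, where 0.086% of all genes tested were lower. Ighg1 had 477 OVA and 99 C4 UMIs (log2 ratio -1.16) and Ighg2c had 286 and 3 (-1.20). In OVA, Ighg1 was in 8.73% of B and 10.3% of T cells, and Ighg2c in 6.30% and 6.33%. In C4, Ighg1 was in 0.811% of B and 0.201% of T cells, and Ighg2c in 0.0760% of B cells and no T cell. Neither gene was thus found in a larger share of B than of T cells in OVA. The part of free RNA in the B cell values was not tested. With 10 CPM added the other constant genes stayed within the fold, among them Ighm at 0.04, Ighd at 0.16, Igha at 0.14 and Igkc at -0.00. Ighg2b and Ighg3 were also lower in C4, at 337 and 138 UMIs (-0.66) and 109 and 35 UMIs (-0.38). Before 10 CPM were added, they stood at 15.7 and 6.26 CPM and at 5.09 and 1.59 CPM. They too were in a larger share of OVA than C4 T cells, at 2.74% and 0.603% for Ighg2b and 0.456% and 0.0335% for Ighg3. With 10 CPM added, Ighg3 could not pass 2-fold downward from 5.09 CPM in OVA, nor could Igha from 6.68 CPM. Ighe, the constant gene of IgE, had no UMI in B cells of either library. The recombinase genes Rag1 and Rag2, which cut at variable segments during assembly, had 0 UMIs in B cells, and Dntt, which adds bases at the junctions, had 4 and 1. The octamer factors that bind variable promoters, Pou2f1 and Pou2f2, and their B cell coactivator Pou2af1 had log2 ratios of 0.11, 0.15 and 0.10.

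The Jchain+ cells, a small fraction of cells, held much of the segment RNA. In OVA 42 cells held 5865 of the variable-segment UMIs, 57.4% of those in the library, and in C4 12 cells held 1151, or 23.8%. Single cells weighed heavily: the top cell held 12.99% of this sum in OVA and 30.9% in C4, and the top 3 held 23.4% and 66.4%. Without the top cell the shares of the library were 53.9% and 17.8%, and without Iglv1 they were 38.0% and 19.4%. Per cell the median was 111.5 variable UMIs in OVA and 73.5 in C4, with highest values of 762 and 356.

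The cells were numbered within a library by their variable UMIs, from OVA_1 to OVA_42 and from C4_1 to C4_12. The range within the class was wide. OVA_41 and OVA_42 had no variable UMI, a single Jchain UMI, and 25 and 20 Cd3 UMIs. C4_9 to C4_12 had 6, 5, 4 and 1 variable UMIs beside 70, 8, 18 and 24 UMIs of Ms4a1, and 4 or fewer of Xbp1. By contrast OVA_1 to OVA_36 and C4_1 to C4_8 had at least 29 variable UMIs and at least 7 Xbp1 UMIs each. Ms4a1 did not fully separate the C4 cells: C4_7 had 25 UMIs and C4_8 had 9, while C4_1 to C4_6 had 3 or fewer.

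**Figure D3:**
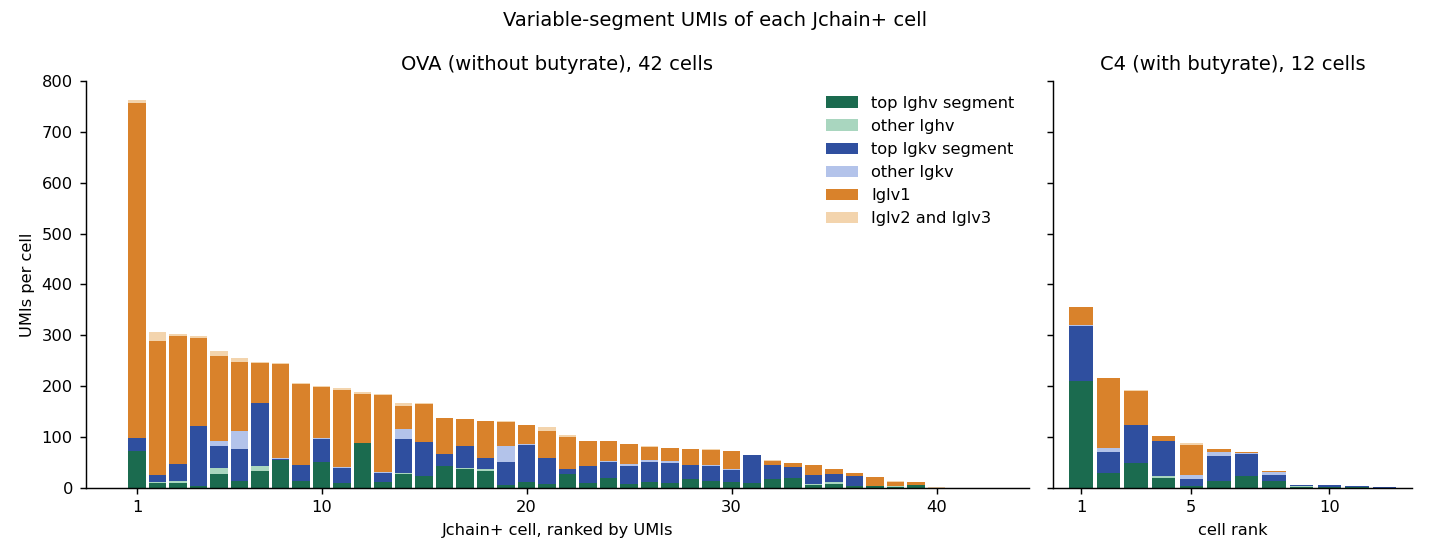
Variable-segment UMIs of each Jchain+ cell (UMIs per cell, vertical axis), ranked within the library (horizontal axis), split into the top Ighv segment, other Ighv, the top Igkv segment, other Igkv, Iglv1, and Iglv2 with Iglv3. Most OVA cells carry a large Iglv1 block beside 1 Ighv and 1 Igkv segment, up to 659 UMIs in OVA_1; C4_1 is led by Ighv4-1 at 210 UMIs.

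Most of these cells held 1 heavy segment. Of the 27 OVA and 7 C4 cells with at least 10 Ighv UMIs, 18 and 6 held UMIs of a single Ighv segment, and the lowest share of the top segment among these cells was 69.2% in OVA and 82.6% in C4. A heavy segment was assigned in 38 OVA cells, 29 distinct ones, and in 10 C4 cells, 8 distinct ones. Of cells with at least 10 Igkv UMIs, 34 in OVA and 8 in C4, 16 and 2 held a single Igkv segment, with a median share of the top segment of 97.8% and 90.8%.

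By heavy constant gene, OVA held 14 Ighg2c, 12 Ighm, 7 Ighg1 and 5 Ighg2b cells, 1 each of Ighg3, Igha and Ighe, and 1 cell with no heavy constant UMI. Of the Ighm cells, OVA_41 was called by a single Ighm UMI and held 25 Cd3 UMIs and no variable UMI. C4 held 5 Ighm, 4 Ighg1, 2 Igha and 1 Ighg2b cells, and no Ighg2c cell. The 14 OVA Ighg2c cells used 12 distinct heavy segments and the 7 Ighg1 cells used 7. All 4 C4 Ighg1 cells were among the cells with 6 or fewer variable UMIs, C4_9 to C4_12.

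The Ighv1 family held 70.0% of Ighv UMIs of OVA Jchain+ cells and 19.7% of those of C4, where the single cell C4_1 alone gave Ighv4-1 210 of 371 Ighv UMIs. OVA_12, an Igha cell, held 88 UMIs of Ighv1-22, and OVA_1, an Ighg2c cell, held 73 of Ighv1-19. Ighv1-42 had 54 UMIs in OVA_8 and Ighv2-9 had 50 in OVA_10. In C4, Ighv5-6 had 48 UMIs in C4_3, Ighv1-55 had 29 in C4_2 and Ighv3-8 had 24 in C4_7. Among kappa segments the OVA leaders were Igkv5-48 with 129 UMIs over 3 cells, Igkv3-4 with 123 in OVA_7, Igkv12-44 with 118, of which 117 were in OVA_4, Igkv3-7 with 103, Igkv3-12 with 87 and Igkv6-17 with 83. The C4 leaders were Igkv1-117 with 109 UMIs in C4_1, Igkv4-57-1 with 75 in C4_3, Igkv8-27 with 69 in C4_4 and Igkv14-126 with 50 in C4_6. By family, Igkv3 held 27.5% of Igkv UMIs in OVA and 1.54% in C4 Jchain+ cells, and Igkv1 held 8.67% and 31.5%. The 3′ ends of both segments of C4_1 are shown, with the cysteine codon in capitals, as the segments of the cell with the highest heavy chain count.
Ighv4-1 (chr12:113948282-113948386, minus strand): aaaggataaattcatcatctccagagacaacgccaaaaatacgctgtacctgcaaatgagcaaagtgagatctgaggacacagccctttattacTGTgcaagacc
Igkv1-117 (chr6:68121723-68121827, plus strand): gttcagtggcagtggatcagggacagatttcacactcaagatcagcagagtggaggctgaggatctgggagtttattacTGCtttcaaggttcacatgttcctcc

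Iglv1 was the most abundant segment of Jchain+ cells although most of these cells made kappa chains. It had 3455 UMIs in OVA, 68.5% of their light variable UMIs, and 316 in C4, 40.5%. By constant genes, 35 of the 42 OVA cells and 11 of the 12 C4 cells were kappa. Among kappa cells with at least 100 Igkc UMIs, 35 in OVA and 10 in C4, Iglv1 was found in 33 and 8. It exceeded the top Igkv segment of the cell in 23 of 35 OVA and 2 of 10 C4 cells. Its median was 47 UMIs per cell in OVA and 7.5 in C4, with highest values of 659 and 136, against medians of 32 and 47 for Igkv. Summed over these cells, Iglv1 had 3087 UMIs and Igkv 1460 in OVA, and 316 and 451 in C4. Counted among them were OVA_40, with 1 variable UMI, and C4_10 and C4_11, with 5 and 4. None of these had an Iglv1 UMI, and they enter the shares and medians above.

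In the same kappa cells Iglc1, Iglc2 and Iglc3 together held 1.67% of light constant UMIs in OVA and 1.74% in C4. These cells were called kappa by a high Igkc share, so a low lambda constant share in them follows from the rule. Cells with a larger lambda constant share, described below, were left out by it. Whether the lambda constant genes rose with Iglv1 was therefore not tested by these shares. OVA_1 had 659 Iglv1 UMIs beside 10873 of Igkc, 0 of Iglc1, 42 of Iglc2 and 18 of Iglc3. OVA_2 had 263 beside 13739 of Igkc, 5 of Iglc1, 35 of Iglc2 and 1 of Iglc3. OVA_31 was an exception, with 56 UMIs of Igkv1-117 and none of Iglv1. For every 100 constant UMIs of the locus, Jchain+ cells held 10.2 lambda variable UMIs in OVA and 21.2 in C4, where B cells held 0.593 and 0.598. The kappa locus showed no such excess, at 0.578 and 0.602 in Jchain+ cells and 0.785 and 0.717 in B cells. The heavy locus stood at 0.946 in OVA and 2.10 in C4 Jchain+ cells (1.03 without C4_1) and at 2.59 and 2.56 in B cells. The lambda values pool kappa and lambda cells. Of 34928 lambda constant UMIs in OVA Jchain+ cells, OVA_8 gave 11284 of Iglc1 and OVA_12 gave 13830 of Iglc3. C4 had 1541 and no lambda cell, so the order of the libraries in this ratio does not describe kappa cells.

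Iglv1 varied widely among these cells. Over the OVA and C4 kappa cells described above, Iglv1 and Igkc had Spearman correlations of 0.50 and 0.56 and Pearson correlations of 0.35 and 0.20, as a description of 35 and 10 cells that share a library. Iglv1 and the total UMIs of the cell had Spearman correlations of -0.11 and -0.76. By heavy constant gene, Iglv1 was read over all Jchain+ cells of a library, not only kappa cells. In OVA the median was 153 UMIs in the 7 Ighg1, 52 in the 5 Ighg2b, 51.5 in the 14 Ighg2c and 22.5 in the 12 Ighm cells. The ranges of 8 to 263, 8 to 152, 5 to 659 and 0 to 161 overlapped. The Ighg1 cells include OVA_8, a lambda cell with 186 Iglv1 UMIs, and OVA_18, a mixed cell with 73. The Ighm cells include the lambda cell OVA_38 with 7. The 12 OVA Ighm cells include OVA_41, with a single Ighm UMI and no Iglv1 UMI. In C4 the 5 Ighm cells had a median of 6 Iglv1 UMIs, and the 4 Ighg1 cells had none. These C4 Ighg1 cells held 6 or fewer variable UMIs of any kind, so no order by constant gene could be read in C4. Iglv3 stayed low, at 92 UMIs in all OVA and 8 in all C4 Jchain+ cells, and Iglv2 at 6 and 2. The gene 2010309G21Rik overlaps Iglv1 on the opposite strand, and whether counting used strand is not given in the sources used here. It had 15 UMIs in the 42 OVA and 3 in the 12 C4 Jchain+ cells, and 464 and 372 in the 4077 and 3946 B cells, where Iglv1 had 3455 and 316, and 196 and 203. The joining genes Iglj1 and Iglj3 were at 0 in both libraries. What the Iglv1 molecules were joined to cannot be read from counts per gene.

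**Figure D4:**
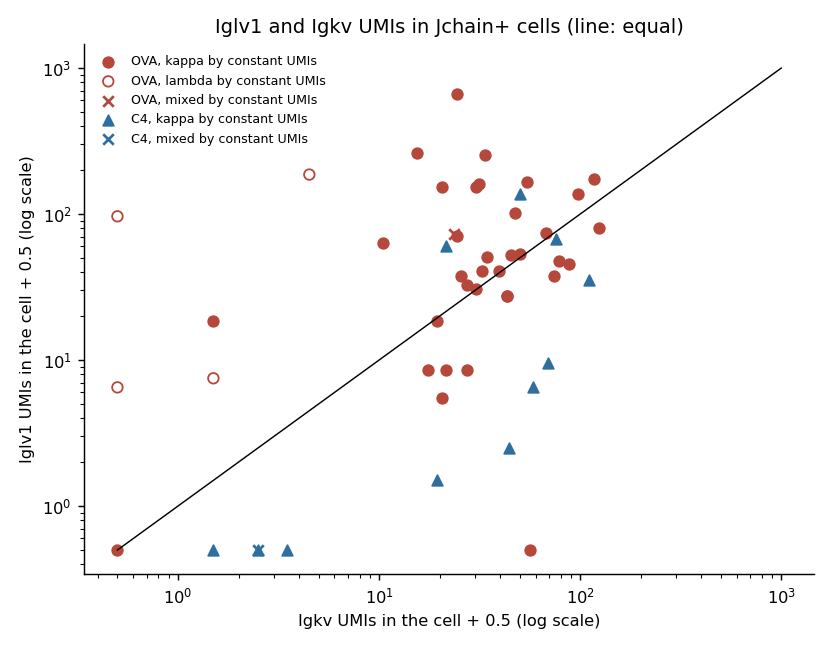
Iglv1 UMIs (vertical axis) against the sum of Igkv UMIs (horizontal axis) in each Jchain+ cell, both with 0.5 added on log scales, by library and by the light chain type of the constant genes; 2 OVA cells with under 5 light constant UMIs are not drawn. Many filled OVA points, which are kappa by constant genes, lie at or above the line of equal counts, and OVA_1 is at the top with 659 Iglv1 UMIs.

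By constant genes 4 OVA cells and no C4 cell were lambda. OVA_8 had 11284 UMIs of Iglc1, 186 of Iglv1 and 54 of Ighv1-42. OVA_12 had 13830 of Iglc3, 96 of Iglv1 and 88 of Ighv1-22. OVA_38 had 1661 of Iglc3, 1111 of Iglc2 and 7 of Iglv1, and OVA_39 had 312 of Iglc3, 6 of Iglv1 and 5 of Ighv1-22. OVA_8 and OVA_12 had 4 and 0 Igkv UMIs, so in these cells Iglv1 was the leading light segment and the constant genes were of its own locus. OVA_18 held both kinds, with 3033 UMIs of Igkc and 2310 of Iglc1, beside 23 of Igkv4-72, 73 of Iglv1 and 34 of Ighv7-4.

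Because Iglv1 was so widespread, light segments of Jchain+ cells were also assigned over Igkv alone, a choice made after these values were seen. With Iglv counted, a light segment was assigned in 20 OVA cells, 16 of them to an Iglv segment, and in 8 C4 cells, 2 of them to an Iglv segment. Over Igkv alone it was assigned in 32 OVA cells, 24 distinct segments, and in 10 C4 cells, 10 distinct segments.

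Pairs of 1 heavy and 1 kappa segment were named in 32 OVA and 9 C4 cells. They were 30 distinct pairs in OVA and 9 in C4, and no pair was in 3 cells of a library. Ighv3-6 with Igkv6-17 was in OVA_3 (10 and 32 UMIs, Ighg2c) and in OVA_28 (17 and 27, Ighg2b). Ighv1-81 with Igkv3-7 was in OVA_15 (24 and 67) and in OVA_25 (8 and 35), both Ighg2c. The counts hold no junction sequence, so descent from 1 B cell was not tested. Igkv5-48 was in 3 OVA cells, each time with another heavy segment (Ighv2-9, Ighv1-7 and Ighv1-55). The segments of the repeated pairs are shown, with the cysteine codon in capitals.
Ighv3-6 (chr12:114288157-114288261, minus strand): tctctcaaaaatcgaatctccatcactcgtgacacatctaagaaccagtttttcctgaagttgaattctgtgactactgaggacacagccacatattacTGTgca
Igkv6-17 (chr6:70371889-70371993, plus strand): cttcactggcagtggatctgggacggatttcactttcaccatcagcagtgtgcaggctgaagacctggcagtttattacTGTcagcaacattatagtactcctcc
Ighv1-81 (chr12:115920279-115920383, minus strand): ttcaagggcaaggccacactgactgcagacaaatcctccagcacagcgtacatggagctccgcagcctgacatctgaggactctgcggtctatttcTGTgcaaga
Igkv3-7 (chr6:70607932-70608036, plus strand): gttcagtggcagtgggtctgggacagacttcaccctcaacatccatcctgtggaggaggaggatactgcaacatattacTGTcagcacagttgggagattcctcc

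A single pair was present in both libraries. Ighv11-2 with Igkv14-126 was in OVA_34 (6 and 18 UMIs) and in C4_6 (13 and 50), both Ighm cells. OVA_27, also an Ighm cell, held Ighv12-3 (9 UMIs) with Igkv4-91 (39). As background, both are known pairings of B-1 cells, innate-like B cells whose antibodies bind phosphatidylcholine. In B cells these segments were rare: Ighv11-2 was in 1 OVA and 4 C4 cells, Igkv14-126 in 4 and 6, Ighv12-3 in 3 and 2, and Igkv4-91 in 3 and 6, and no B cell of either library had both Ighv11-2 and Igkv14-126. Ighv11-2 differed at 4 bases of the exon from its near copy Ighv11-1, which had 0 OVA and 1 C4 UMIs in all. Of these, the 2 in the last 180 bases are in capitals. The other segments are shown with the cysteine codon in capitals.
Ighv11-2 (chr12:114048241-114048420, minus strand): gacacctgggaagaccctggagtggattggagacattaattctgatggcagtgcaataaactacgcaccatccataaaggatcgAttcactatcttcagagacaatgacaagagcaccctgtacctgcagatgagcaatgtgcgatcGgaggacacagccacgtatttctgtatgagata
Ighv11-1 (chr12:113981879-113982058, minus strand): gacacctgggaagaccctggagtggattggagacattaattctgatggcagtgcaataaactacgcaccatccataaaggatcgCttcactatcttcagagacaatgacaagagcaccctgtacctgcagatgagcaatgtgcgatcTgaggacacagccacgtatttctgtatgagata
Igkv14-126 (chr6:67896538-67896642, plus strand): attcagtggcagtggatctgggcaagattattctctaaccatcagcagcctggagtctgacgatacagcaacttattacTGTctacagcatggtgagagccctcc
Ighv12-3 (chr12:114366521-114366625, minus strand): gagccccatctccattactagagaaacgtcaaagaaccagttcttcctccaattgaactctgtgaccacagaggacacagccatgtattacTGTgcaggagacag
Igkv4-91 (chr6:68768555-68768659, minus strand): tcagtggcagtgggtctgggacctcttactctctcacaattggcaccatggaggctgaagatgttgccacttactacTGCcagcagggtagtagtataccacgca

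Pairs of B cells were read with a single UMI of each chain accepted. In OVA 304 B cells gave 278 distinct pairs and in C4 316 gave 297. The most frequent was in 4 cells of a library: Ighv1-64 with Igkv12-44 in OVA, where 24 of the cells used Igkv12-44, and Ighv1-64 with Igkv6-32 in C4.

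Ighe, the IgE constant gene, had over 20 UMIs in 3 Jchain+ cells. OVA_11 had 28 Ighe beside 1720 Ighg1 UMIs, with Ighv1-26 (10 UMIs) and Igkv10-96 (28). OVA_40 had 27 Ighe UMIs and no Ighv or Igkv UMI. C4_9 had 24 Ighe beside 91 Ighg1 UMIs, with 2 UMIs each of Ighv1-19 and Igkv10-96. By their most abundant heavy constant gene OVA_11 and C4_9 were Ighg1 cells, so no cell with Ighe as its leading constant gene had a known segment. C4_9 had no heavy segment by the assignment rule, and 70 Ms4a1 UMIs.

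A cell normally shows 1 segment per chain, so a second one was counted where it had at least 2 UMIs and 20% of the UMIs of the chain. Among B cells with 2 or more UMIs of a heavy segment, 1 of 289 in OVA (0.346%; 0.00876% to 1.91%) and 7 of 321 in C4 (2.18%; 0.881% to 4.44%) had a second heavy segment. For kappa the counts were 2 of 177 and 0 of 153. Without doublet removal the heavy chain shares were 0.587% and 1.93%. In Jchain+ cells a second heavy segment was seen in 2 of 39 OVA and 0 of 11 C4 cells, and a second kappa segment in 4 of 35 and 2 of 11. With Iglv counted, a second light segment was seen in 26 of 39 OVA and 4 of 11 C4 cells.

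The second segments were of 2 kinds. Both heavy cases were the same combination: OVA_5 held 27 UMIs of Ighv1-75 and 12 of Ighv1-66, and OVA_7 held 33 and 10. These exons differed at 20 bases (93.4% identical), 14 of them in the last 180, shown in capitals.
Ighv1-75 (chr12:115833950-115834129, minus strand): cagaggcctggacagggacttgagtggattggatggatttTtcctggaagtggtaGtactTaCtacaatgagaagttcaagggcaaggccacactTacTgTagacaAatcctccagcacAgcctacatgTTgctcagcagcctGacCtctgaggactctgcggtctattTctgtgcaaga
Ighv1-66 (chr12:115593110-115593289, minus strand): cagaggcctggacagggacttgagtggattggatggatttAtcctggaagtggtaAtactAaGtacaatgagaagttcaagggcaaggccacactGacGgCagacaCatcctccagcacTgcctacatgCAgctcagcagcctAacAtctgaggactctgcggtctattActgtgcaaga
OVA_26, by contrast, held 11 UMIs of Ighv1-75 and none of Ighv1-66. C4_5 held 13 UMIs of Igkv1-110 and 8 of the 96.8% identical Igkv1-117, while C4_1 and OVA_31 held Igkv1-117 and no Igkv1-110. In other cells the segments were unlike each other. OVA_6 held 63 UMIs of Igkv3-12 and 33 of Igkv10-96 (67.1% identical), and OVA_19 held 45 of Igkv3-5 and 23 of Igkv15-103 (64.5%). OVA_14, a cell with 69533 UMIs in all, held 67 of Igkv6-25 and 20 of Igkv3-1 (65.2%). OVA_8 held 2 each of Igkv10-96 and Igkv8-21 (63.6%). C4_8 held 13 of Igkv1-135 and 6 of Igkv4-92 (57.5%).

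Because single secretory cells carried so many UMIs, library totals of a segment often described 1 cell. Of the 85 segments with at least 20 UMIs in OVA, 24 (28.2%) had 50% or more in a single cell, as did 9 of 66 (13.6%) in C4. In OVA 21 of these leading cells were Jchain+ cells and 3 were cells in none of the 3 classes, and in C4 all 9 were Jchain+ cells. No B cell led a segment in this way, and within B cells no segment had more than 6 UMIs in a cell.

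Leaving out the top cell of each library moved the ratio between libraries of such segments. Ighv4-1 had 219 UMIs in C4, 95.9% of them in C4_1, and 18 in OVA, and its log2 ratio of library CPM, C4 over OVA, was 3.61 with and -0.73 without the top cells. Igkv4-57-1 moved from 3.75 to 0.01, with C4_3 as its top C4 cell, and Igkv8-27 from 1.71 to -1.14, with C4_4. Igkv4-79 moved from -3.58 to 0.01, with OVA_17 as its top OVA cell, Igkv12-44 from -1.13 to -0.08, with OVA_4, and Igkv6-25 from -1.85 to 0.08, with OVA_14. Ighv7-4 had all 34 of its OVA UMIs in OVA_18. Ighv3-8 kept its direction, at 3.59 with and 2.59 without the top cells, and was in 1 OVA and 10 C4 B cells. Igkv3-1 had 183 UMIs in OVA, 81.4% of them in a cell of no class, and the ratio was -3.92 with and -1.76 without the top cells. The second value still counts other Jchain+ cells, among them OVA_14 with 20 and OVA_5 with 6 Igkv3-1 UMIs. In B cells the direction was opposite, with Igkv3-1 in 3 OVA and 9 C4 cells (log2 ratio 1.63).

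**Figure D5:**
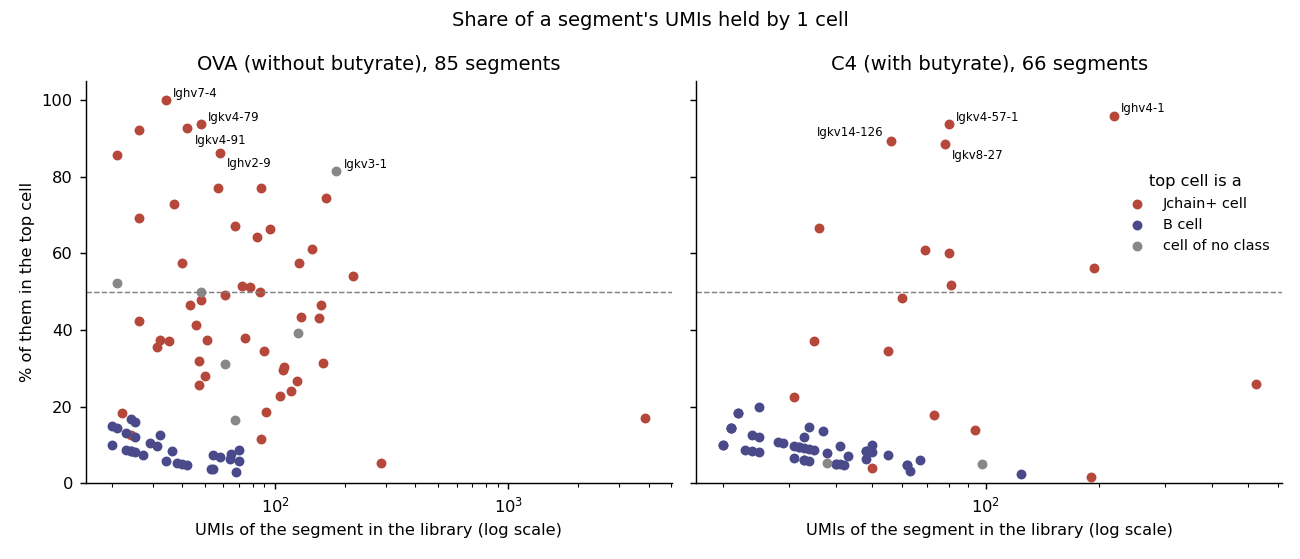
Percentage of a segment's UMIs held by the cell with most of them (vertical axis) against the UMIs of the segment in the library (log scale, horizontal axis), for segments with at least 20 UMIs, 85 in OVA and 66 in C4. Above the dashed line at 50% lie 24 OVA and 9 C4 segments, led by Jchain+ cells or cells of no class, while segments led by a B cell lie at or below 20%.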

How the data were processed

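The authors deposited raw UMI counts per gene and cell for 31053 genes, unnormalized. The submitters' processing notes name Cell Ranger 6.0.1 and mm10; the strand setting is not given in the sources used here. Each condition was 1 library of 4 pooled mice, so values carry exact binomial (Clopper-Pearson), exact Poisson or conditional exact binomial intervals at 95% and no p-value. Everything below was computed from the counts. The deposited libraries held 9681 OVA and 8932 C4 cells with 59176459 and 58381292 UMIs. Cells were kept at no more than 10% mitochondrial UMIs and no fewer than 200 genes, which took out 186 and 327. Doublets were then removed by rank of the Scrublet score in scanpy 1.11.5, 0.8% of cells for each 1000 in the library (721 and 592). Variable exons, positions and types came from GENCODE M21 on GRCm38, and pairs of exons were aligned with edlib. CPM ratios used a pseudocount of 10 and genes with at least 50 UMIs. Scripts (Python 3.11.15, numpy 2.4.6, pandas 2.3.3, scipy 1.17.1) were tested on simulated counts. The simulated CPM ratios used a pseudocount of 1 and genes with at least 200 UMIs, unlike the reported ratios.

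The members and lists were chosen with earlier results of these data known. Named segments were the 10 heavy and 10 light ones assigned to most B cells, the 3 Iglv, the 10 heavy and 10 light with most UMIs in the Jchain+ cells of each library, the 3 highest and 3 lowest ratios at 20 assigned cells, and the 10 largest with 50% or more of their UMIs in 1 cell; not all of these are described. Segments past 2-fold by share of B cells, and single cells, were chosen after their values were seen. Alternatives were other cell filters, B cell and Jchain+ definitions, UMI minimums, thinning to 2000 UMIs, pseudocounts and leaving out cells. Some genes of the pathway lists are not reported here.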

Additional observations from a re-analysis of the deposited data

How the results depend on the processing

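Over 24 results, 132 of 172 recomputed values stayed within counting error or within 1.5 times the reported one, 40 moved and 0 reversed. The share of library variable UMIs in Jchain+ cells was 55.7% (OVA) and 22.6% (C4) without doublet removal and 62.3% and 29.4% at no more than 5% mitochondrial UMIs; without Iglv1 it was 38.0% and 19.4% and without the top cell 53.9% and 17.8%, both chosen after seeing the data. B cells with a variable UMI numbered 52.2% and 52.9% without Iglv1 and 30.05% and 28.9% after thinning, also chosen afterwards, and thinned OVA T cells 0.315%. B cells with an assigned heavy segment were 31.2% and 32.7% at 1 UMI, 0.0981% and 0.101% at 5 UMIs and 1.51% and 1.35% after thinning; for the light chain, 28.5% and 27.7%, 0.0% and 0.0253%, and 1.04% and 0.814%. The effective number of heavy segments was 4 in each library at 5 UMIs and 22.6 and 27.3 after thinning, and of light segments 1 in C4 at 5 UMIs. A second heavy segment was seen in 5.66% and 6.73% at 1 UMI and in 0.0% in both libraries at 5 UMIs and after thinning. Distinct pairs of OVA Jchain+ cells fell to 18 with Iglv counted in the light chain. Segments led by 1 cell numbered 5 and 2 at 100 UMIs or more. By cells assigned at 1 UMI, 4 of 77 segments with at least 20 such cells were 2-fold apart. In C4, 1 heavy and 2 light segments were higher and 1 light segment was lower. Only segments were assigned to cells, so this count has no share over all genes beside it. At 5 UMIs and after thinning no segment reached 20 assigned cells, and at 5 UMIs no OVA light diversity or lambda ratio could be had. Calls at 1 UMI and no doublet removal let in more cells by construction, and the 5% limit, higher UMI minimums, thinning and left-out cells or segments let in fewer; no other cause was tested.

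Of 42 recomputed ratios for the 7 segments 2-fold apart by share of B cells with a UMI, none reversed and 8 lost an interval that had left 0: 4 of Igkv4-72, 3 of Igkv5-43 and 1 of Igkv3-12. Ighv1-26 stayed between 0.997 and 1.12. On the CPM scale none of the 50 segments tested passed 2-fold with 1 CPM added. With 10 CPM added, as in the other 7 settings, none passed, and at the reported levels none could. No paired analysis was possible because each condition has 1 library, and no replicate could be left out. Depth limits the B cell results: under 1 variable UMI per cell leaves most cells unassigned.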

Other observations

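In the OVA library 4 cells that belonged to none of the B, Jchain+ and T classes held at least 20 variable UMIs, and in C4 none did. They had 348, 68, 66 and 61 variable UMIs, and all 4 had Jchain (600, 269, 304 and 361 UMIs) and Xbp1 (10, 12, 19 and 37 UMIs) but no UMI of Sdc1 or Tnfrsf17, so the rule for Jchain+ cells did not take them. The first held 24 UMIs of Ighv8-12, 149 of Igkv3-1 and 133 of Iglv1, with Ighg2c as its constant gene. The second held 11 of Ighv1-12 and 41 of Iglv1 beside 6799 of Igkc, the kappa constant gene. The third, an Ighm cell, held 9 of Ighv1-42 and 49 of Igkv19-93, and the fourth, an Ighg1 cell, held 19 of Ighv1-76 and 35 of Igkv3-7. Together they had 543 variable UMIs.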
